A study of Rattus norvegicus with 24 samples.

Results

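The cadherins and protocadherins are a superfamily of calcium-dependent adhesion proteins. They were taken here as every probe set of a rat expression array whose gene symbol in the platform annotation begins with Cdh and a number, or with Pcdh. The rule found 50 of the 31042 probe sets that are not controls. Of these, 46 carried 1 symbol and stood for 33 of the 14217 genes so named, while 4 carried several symbols, all of the alpha or all of the gamma protocadherin cluster. RNA came from the microdissected dentate gyrus of male Long-Evans rats, an outbred strain, with 1 rat per array. Tissue was taken 2 weeks after the rats had been tested in the Morris water maze, in which a swimming rat learns the place of a hidden platform, and no treatment was given. The groups were 7 aged impaired rats, whose learning score was worse than that of young rats, 6 aged unimpaired rats, whose score lay in the young range, and 8 young rats. Aged rats of both groups were 24 to 26 months old and young rats were 6 months old.

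Cadherins hold neighbouring cells together by binding the same cadherin on the opposite membrane, and their tails join the actin skeleton through catenins. Classical type I and type II cadherins act at synapses and in the sorting of neurons and their layers. Clustered protocadherins (alpha, beta and gamma) are encoded side by side. Each neuron expresses its own combination of them from individually chosen promoters, which gives its branches an identity by which they recognise themselves. Non-clustered protocadherins have single loci and are expressed in patterns that differ between brain regions and layers.

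Values were the authors' GCRMA summaries on the log2 scale, on which 1 unit is a doubling of signal. Each probe set binds its target with its own strength, so levels of different probe sets are given as signal and set no order of expression between genes. Array medians lay between 3.77 and 3.84, 48.3% to 48.8% of probe sets per array were above 4, and pairs of arrays correlated at an r of 0.984 to 0.994 across the tested probe sets. A probe set was tested when it exceeded a log2 level of 4 on at least 6 of the 21 arrays, which 15177 probe sets did. Of 9 listed markers of dentate granule neurons, the principal cells of this tissue, 8 had a probe set and 6 of them passed that filter, among them C1ql3 at a mean of 12.38, Stxbp6 at 11.31 and Prox1 at 10.81. Tdo2 at 2.40 and Pdzd2 at 2.11 were above 4 on 0 of 21 arrays. The mean over 12 meningeal markers was higher on impaired replicates 2, 3 and 7 (4.40, 4.18 and 3.80) and young replicate 5 (3.78) than on any other array (3.35 to 3.60). Of these markers 2, Bgn and Igf2, passed the level filter, so most of the probe sets averaged lay below it. Calls that were lost without these 4 arrays are given with their value. Most of the 4 are impaired arrays, so leaving them out also leaves fewer arrays to compare. Calls over all probe sets in all aged rats went from 168 to 86 in that setting. A call lost to fewer arrays and a call lost to meningeal tissue cannot be told apart here.

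Of the 46 probe sets with 1 symbol, 26 passed the level filter and covered 17 genes, and the 4 probe sets with several symbols passed as well. Of these 30, 28 were above 4 on all 21 arrays. The exceptions were the Pcdhb17 probe set, above 4 on 16 arrays, and 1 of 3 Cdh11 probe sets (1391088_at), above 4 on 19. The brightest single-gene probe sets were those of Cdh22 at a mean of 11.60, Pcdh9 at 10.89, Pcdh20 at 10.36, Cdh2 at 10.35 and Pcdh17 at 10.06, which is an order of signal only. The 20 probe sets below the filter averaged 1.78 to 3.70, and 19 of them had no array above 4. They left 16 genes without a tested probe set: Cdh1, Cdh3, Cdh6, Cdh7, Cdh15, Cdh16, Cdh17, Cdh20, Pcdh15, Pcdh18, Pcdha12, Pcdha13, Pcdhb6, Pcdhb12, Pcdhb21 and Pcdhb22. Cdh2 and Pcdh9 had probe sets on both sides of the filter, at 2.06 and 3.16 for the lower ones, so a probe set below it does not show that a gene is silent. Nearest to the filter were Cdh23 above it, at a mean of 4.25, and a Pcdhb12 probe set (1385327_at) below it, at 3.70. By gene identifier, 31 of the 33 genes matched a RefSeq gene. RefSeq lists 73 protein-coding genes of the family, of which 27 are named by no probe set and were not analysed here.

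**Figure D1:**
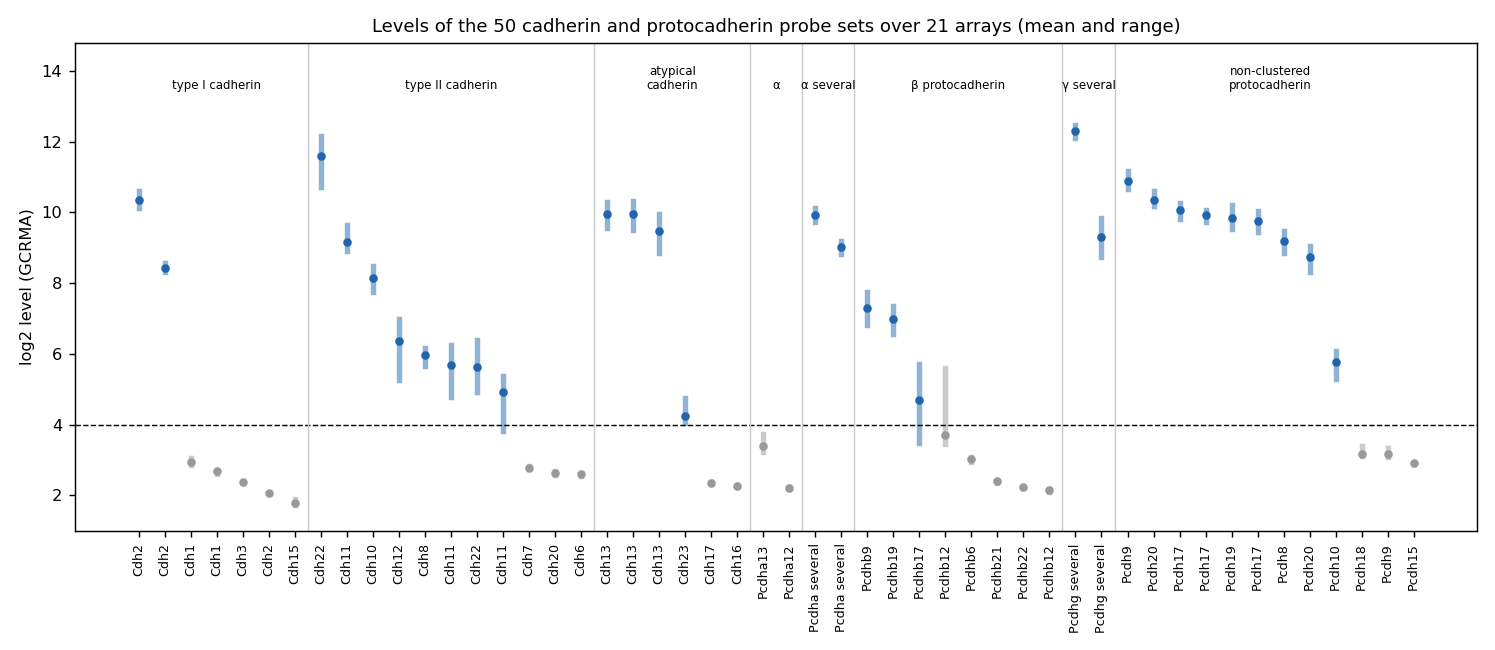
Mean log2 level (points) and range over the 21 arrays (bars) of all 50 cadherin and protocadherin probe sets, grouped by class; grey marks probe sets below the level filter and the dashed line marks a log2 level of 4. The 20 grey probe sets average 1.78 to 3.70, and Pcdhb17, Cdh11 (1391088_at) and Pcdhb12 (1385327_at) span the line.

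Among the clustered protocadherins, Pcdhb17 was higher in both aged groups than in young rats, while the other measured beta protocadherins, Pcdhb9 and Pcdhb19, differed from young rats by less than the spread between animals. Pcdhb17 is a beta protocadherin, a family of single-exon genes whose proteins span the membrane and bind their like on the facing cell. Its probe set read 5.34, 5.15, 5.72, 5.23, 5.24, 5.09 and 5.72 on impaired replicates 1, 2, 3, 4, 6, 7 and 8. It read 4.94, 4.79, 4.80, 5.40, 4.79 and 5.21 on unimpaired replicates 1, 3, 4, 6, 7 and 8. On young replicates 1 to 7 and 9 it read 4.05, 3.81, 3.49, 4.0, 4.17, 3.74, 3.75 and 4.02. Every aged array was above every young array, and the aged groups overlapped each other between 5.09 and 5.40.

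Impaired rats averaged 5.35 ± 0.26 (SD, n = 7) and unimpaired rats 4.99 ± 0.26 (n = 6), against 3.88 ± 0.22 in young rats (n = 8). Pcdhb17 rose by 1.48 ± 0.12 (SE) on the log2 scale in impaired rats, a level 2.79 times that of young rats (limma adjusted p = 8.33e-07). The rise in unimpaired rats was 1.11 ± 0.13, a level 2.16 times that of young rats (limma adjusted p = 0.000261). Two-sided exact permutation tests over arrays gave p = 0.0001554 for impaired and p = 0.000333 for unimpaired rats, each the smallest that the 6435 or 3003 regroupings allow. Impaired rats were above unimpaired rats by 0.37 ± 0.13 (95% interval 0.10 to 0.64). That difference did not pass (limma adjusted p = 0.228), and its exact permutation p was 0.0303, 1 of 20 such tests run on Pcdhb17, Cdh13 and Cdh11. The young mean lay below 4, so the probe set entered the test mainly through the aged arrays, and the size of the fold depends on how GCRMA treats dim signal. Both differences from young rats passed under all 29 settings that tested the gene, while a filter at a log2 level of 6 removed it. As the tissue is a mixture, a larger share of cells that express a gene and more RNA per cell cannot be told apart here.

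**Figure D2:**
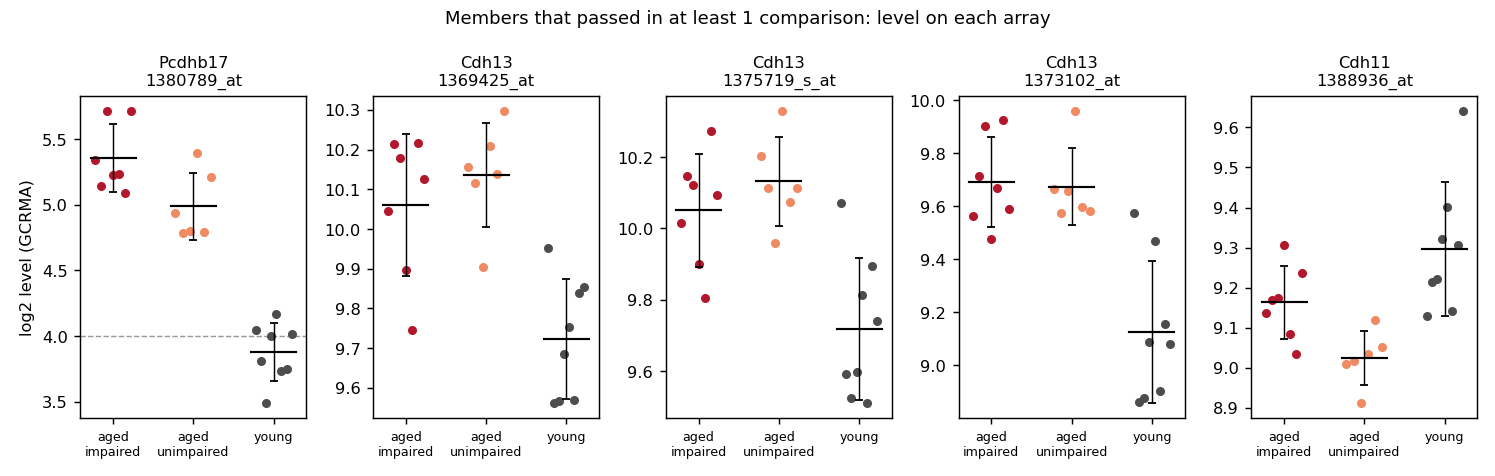
Log2 level on each array (points) of the 5 probe sets that passed in at least 1 comparison, with group means (horizontal bars) and SD (whiskers) for aged impaired (n = 7), aged unimpaired (n = 6) and young rats (n = 8); axes differ between panels and do not start at 0. Every aged array is above every young array for Pcdhb17, whereas aged and young arrays overlap at every Cdh13 probe set and at Cdh11. Unimpaired arrays taken alone are all above the young ones at Cdh13 1373102_at and all below them at Cdh11.

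Pcdhb9 averaged 7.29 ± 0.23 in impaired and 7.33 ± 0.21 in unimpaired rats, against 7.30 ± 0.31 in young rats. Its differences from young rats were -0.01 (95% interval -0.27 to 0.26) and 0.03 (-0.24 to 0.31). Pcdhb19, the next gene after Pcdhb17 along the cluster in RefSeq, averaged 7.02 ± 0.22 in impaired and 7.0 ± 0.11 in unimpaired rats, against 6.98 ± 0.17 in young rats. Its intervals ran from -0.14 to 0.23 in impaired and from -0.18 to 0.21 in unimpaired rats. All 4 upper bounds lie below the lower bounds of Pcdhb17, which were 1.23 and 0.85. Pcdhb19 therefore did not share a difference of that size, while Pcdhb16, the gene before Pcdhb17 along the cluster, is named by no probe set and was not analysed here. Related protocadherins can share probe targets, which was not tested.

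Of the other beta protocadherins, Pcdhb6, Pcdhb21, Pcdhb22 and both probe sets of Pcdhb12 lay below the filter. The brighter Pcdhb12 probe set read 5.61 on impaired replicate 4 and 4.04 on impaired replicate 1, and no other array of any group was above 3.80. The impaired, unimpaired and young medians were 3.69, 3.57 and 3.54. A single impaired rat thus set its impaired mean of 4.0 ± 0.73.

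**Figure D3:**
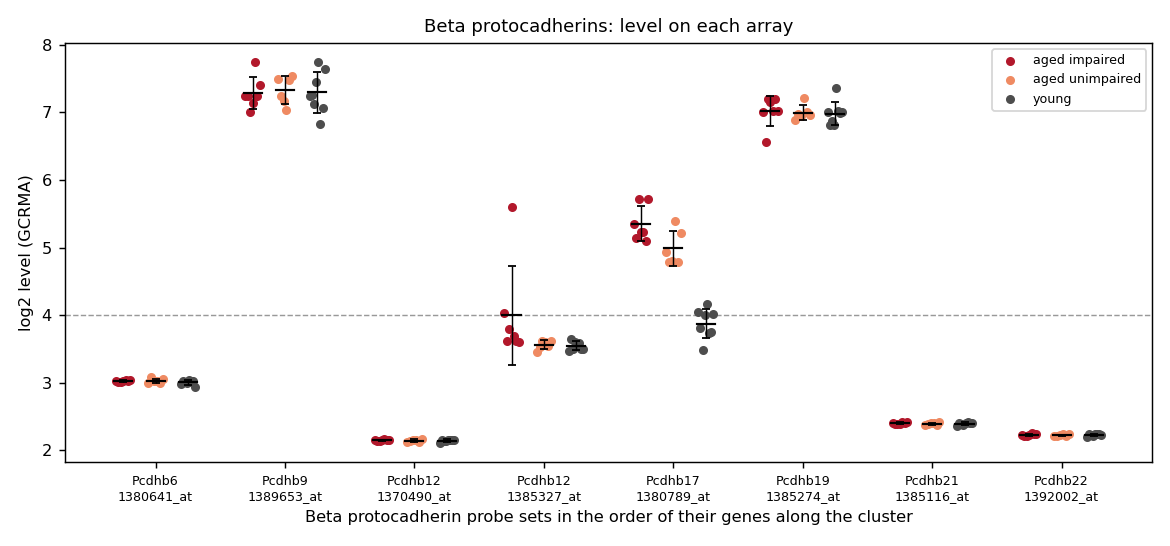
Log2 level on each array (points) of the 8 beta protocadherin probe sets in the order of their genes along the cluster, with group means and SD; the dashed line marks a log2 level of 4. Pcdhb17 alone among the 3 tested ones separates aged from young arrays, and 1 impaired array lifts Pcdhb12 (1385327_at) to 5.61.

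Promoters of clustered protocadherins are known to carry a short conserved element with the core CGCT, near which the insulator protein CTCF binds. RefSeq promoter windows were matched for 21 of the 33 genes and for 5 of the 7 beta protocadherins with a probe set. The genes not matched were Cdh1, Cdh2, Cdh3, Cdh11, Cdh13, Cdh16, Cdh17, Pcdh19, Pcdha12, Pcdha13, Pcdhb17 and Pcdhb22. The longest run of bases shared by the 5 beta windows was 13 bases long, GGTGGCGCTGCAG, with the core CGCT inside it. The windows below are shown because 2 of the genes, Pcdhb9 and Pcdhb19, were above the level filter and the other 2, Pcdhb12 and Pcdhb21, below it. Each is the 250 bases before the gene's start on the plus strand of the GRCr8 assembly, from RefSeq, at chr18:29379060-29379309, chr18:29478598-29478847, chr18:29413506-29413755 and chr18:29491969-29492218 in that order. Capitals mark the shared run.
Pcdhb9: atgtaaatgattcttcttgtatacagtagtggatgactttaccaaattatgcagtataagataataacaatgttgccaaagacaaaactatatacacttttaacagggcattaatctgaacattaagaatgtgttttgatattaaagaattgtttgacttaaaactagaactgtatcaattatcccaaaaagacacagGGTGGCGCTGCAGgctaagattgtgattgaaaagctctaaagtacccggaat
Pcdhb19: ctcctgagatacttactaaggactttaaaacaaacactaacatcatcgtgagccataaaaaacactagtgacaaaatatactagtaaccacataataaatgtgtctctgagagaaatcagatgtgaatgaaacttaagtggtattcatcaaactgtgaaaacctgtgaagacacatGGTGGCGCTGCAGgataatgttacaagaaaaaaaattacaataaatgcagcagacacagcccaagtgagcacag
Pcdhb12: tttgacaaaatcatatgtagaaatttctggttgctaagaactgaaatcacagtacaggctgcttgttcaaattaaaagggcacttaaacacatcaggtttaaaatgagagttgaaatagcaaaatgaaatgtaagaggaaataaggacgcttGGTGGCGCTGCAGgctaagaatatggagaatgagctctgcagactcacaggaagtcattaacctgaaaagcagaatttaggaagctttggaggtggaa
Pcdhb21: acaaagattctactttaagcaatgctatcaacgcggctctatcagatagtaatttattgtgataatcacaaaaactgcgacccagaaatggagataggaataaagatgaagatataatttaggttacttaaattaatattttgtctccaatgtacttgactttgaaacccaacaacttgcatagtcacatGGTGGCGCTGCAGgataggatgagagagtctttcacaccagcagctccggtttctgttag
The run began 46 to 229 bases before the start where it was present on the gene's strand. Searched on both strands of such windows of 250 bases, it stood in 11 of 19 beta protocadherin windows (57.9%), in 0 of 16 windows of the other family members, and in 12 of 27457 windows of all genes (0.0437%). The only holder outside the beta cluster was Dnajb2. The core CGCT alone was common, in 56.7% of all windows. The run was chosen because the 5 windows share it, so that these 5, the 4 printed ones among them, hold it is a matter of that choice. It says nothing of the levels of their genes. The 57.9% counts these 5 windows and is raised by them.

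For the alpha and gamma clusters, in which many first exons are spliced to shared last exons, the probe sets with a level named several genes. The alpha probe sets averaged 9.93 ± 0.12 in impaired and 9.84 ± 0.09 in unimpaired rats, against 9.99 ± 0.09 in young rats (1390821_at), and 9.07, 8.94 and 9.07 in the same order (1393149_at). The gamma probe set 1388551_at averaged 12.33 ± 0.10 in impaired and 12.29 ± 0.11 in unimpaired rats, against 12.31 ± 0.08 in young rats. The largest difference from young rats among the 4 was -0.15 ± 0.06, at 1390821_at in unimpaired rats (limma adjusted p = 0.18), and 0 of 4 passed in any comparison. Gamma probe set 1382943_at varied more between rats, with an SD of 0.30 in impaired, 0.36 in unimpaired and 0.16 in young rats.

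Cdh13 was higher in aged than in young rats by all 3 of its probe sets. It encodes T-cadherin, which lacks the tail that binds catenins, is held to the membrane by a lipid anchor and binds adiponectin. The probe set with the highest mean (1369425_at) read 10.04, 10.21, 10.18, 9.90, 9.74, 10.22 and 10.12 on impaired replicates 1, 2, 3, 4, 6, 7 and 8. It read 10.15, 10.11, 9.90, 10.21, 10.14 and 10.30 on unimpaired replicates 1, 3, 4, 6, 7 and 8. It read 9.95, 9.56, 9.57, 9.69, 9.75, 9.57, 9.84 and 9.85 on young replicates 1 to 7 and 9. All 13 aged arrays were above the young mean, but young replicate 1 reached into both aged groups. Young replicates 5, 7 and 9 were also above the lowest impaired array, replicate 6. Impaired rats averaged 10.06 ± 0.18 and unimpaired rats 10.14 ± 0.13, against 9.72 ± 0.15 in young rats.

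At this probe set Cdh13 rose in unimpaired rats by 0.41 ± 0.08 on the log2 scale, a level 1.33 times that of young rats (limma adjusted p = 0.02). In impaired rats the difference of 0.34 ± 0.08, a level 1.26 times that of young rats, did not pass (limma adjusted p = 0.0559). The difference between the aged groups was -0.08 with a 95% interval of -0.25 to 0.10, so the call in one group and not in the other is no difference between them. Exact permutation tests gave p = 0.00357 for impaired and p = 0.000999 for unimpaired rats against young rats, and p = 0.413 for impaired against unimpaired rats. Whether the difference in impaired rats passed depended on the arrays used. Without the 4 arrays high in meningeal markers it was 0.23 and did not pass (limma adjusted p = 0.424). It passed at 0.39 without impaired replicate 6 (limma adjusted p = 0.019), at 0.37 without young replicate 1 (limma adjusted p = 0.0328) and at 0.36 without impaired replicate 4 (limma adjusted p = 0.0466).

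The second Cdh13 probe set (1373102_at) gave the larger difference. It read 9.56, 9.71, 9.90, 9.48, 9.67, 9.93 and 9.59 on impaired arrays, in the same order of replicates. Unimpaired arrays read 9.66, 9.57, 9.66, 9.96, 9.60 and 9.58, and young arrays 9.57, 8.86, 8.88, 9.09, 9.47, 8.90, 9.15 and 9.08. The lowest unimpaired and the highest young array both stood at 9.57 after rounding, the unimpaired one slightly above. Young replicate 1 lay within the range of impaired rats and young replicate 5 just below it. Cdh13 rose here by 0.57 ± 0.10 in impaired rats (limma adjusted p = 0.0125) and by 0.55 ± 0.11 in unimpaired rats (limma adjusted p = 0.0191), levels 1.48 and 1.46 times that of young rats. With the 4 arrays high in meningeal markers left out, the difference in impaired rats was 0.50 and did not pass (limma adjusted p = 0.106). In fits of only the groups compared, neither difference of this probe set passed (limma adjusted p = 0.0514 in impaired and 0.0524 in unimpaired rats). At the third probe set (1375719_s_at), unimpaired rats were higher by 0.41 (limma adjusted p = 0.0269) and impaired rats by 0.33 (limma adjusted p = 0.0748). Without the same 4 arrays the latter was 0.25 (limma adjusted p = 0.438). In the fit of only the groups compared, the former did not pass either (limma adjusted p = 0.0593). The unimpaired calls of the 3 probe sets passed under 30 of 31, 28 of 30 and 22 of 30 settings, in the order given. All 3 were lost with the replicate number as a block (limma adjusted p = 0.102, 0.105 and 0.115). Young replicate 1 was the highest young array at all 3 Cdh13 probe sets, at 9.95, 9.57 and 10.07.

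Of the glial markers, 2 also rose in aged rats. Of 7 tested microglial markers, C1qa, a complement component, rose by 0.49 in unimpaired rats (limma adjusted p = 0.0463). In that comparison 4 of the 7 were positive and 3 negative (list median 0.05), and in impaired rats 6 and 1 (list median 0.14). The microglial list mean was 6.64 to 7.10 on impaired, 6.65 to 6.93 on unimpaired and 6.53 to 7.10 on young arrays. Of 7 astrocyte markers, Gfap, a filament protein of astrocytes, rose by 0.43 in impaired rats (limma adjusted p = 0.0407), with list means of 10.44 to 10.92, 10.52 to 10.69 and 10.49 to 10.71 in the same order. The other astrocyte markers mostly had negative differences, 4 of the 7 in impaired rats (list median -0.02) and 6 of the 7 in unimpaired rats (list median -0.11). The ranges of both lists overlapped between the groups. The part of these cells in the values of Pcdhb17 and Cdh13 was not tested.

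Cdh23, the other measured atypical cadherin, which is known for the tip links of inner ear hair cells, lay just above the filter. Its level was 4.18 to 4.22 in impaired rats, 4.19 to 4.76 in unimpaired rats and 4.05 to 4.22 in young rats. Unimpaired replicates 3, 4 and 7 read 4.62, 4.76 and 4.47, while the other unimpaired arrays stayed at 4.24 or below. The difference of 0.24 ± 0.07 in unimpaired rats did not pass (limma adjusted p = 0.0953).

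Cdh2 was the only type I cadherin with a tested probe set. It encodes N-cadherin, which spans the synaptic cleft and holds both membranes of the synapse. The brighter probe set averaged 10.39 ± 0.09 in impaired and 10.24 ± 0.08 in unimpaired rats, against 10.41 ± 0.12 in young rats. The difference in unimpaired rats was -0.17 ± 0.06 (limma adjusted p = 0.135) and that in impaired rats -0.02 ± 0.05. The dimmer one gave -0.07 and -0.03. Neither passed.

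Among the type II cadherins, Cdh11 was lower in unimpaired than in young rats at 1 of its 3 probe sets. Cdh11 encodes OB-cadherin, known from bone-forming and other mesenchymal cells and also present in brain. Its brightest probe set (1388936_at) ran from 9.03 to 9.31 in impaired rats with a median of 9.17, and from 8.91 to 9.12 in unimpaired rats with a median of 9.02. In young rats it ran from 9.13 to 9.64 with a median of 9.26. Every unimpaired array was below every young array, although the gap was only from 9.12 to 9.13, and young replicate 9 stood highest at 9.64. Cdh11 fell by 0.27 ± 0.07 on the log2 scale in unimpaired rats (limma adjusted p = 0.045), and its difference in impaired rats was -0.13 ± 0.06 (limma adjusted p = 0.391). The aged groups differed by 0.14, which did not pass (limma adjusted p = 0.346), and the 95% interval of -0.00046 to 0.28 only just included 0. For this difference the two-sided exact permutation test gave p = 0.0105, 1 of the 20 such tests run. Exact permutation tests gave p = 0.00167 for unimpaired and p = 0.0723 for impaired rats against young rats.

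That call for Cdh11 changed with the setting. It passed in 6 of 21 fits that left out 1 array and under 3 of 9 other alternatives, with adjusted p-values of 0.028 to 0.153 over all settings, and without young replicate 9 the difference was -0.22 (limma adjusted p = 0.0569). The other Cdh11 probe sets did not pass in unimpaired rats and disagreed in sign, at -0.30 ± 0.15 (1391146_at) and 0.28 ± 0.21 (1391088_at). Markers of other cells moved in the same comparison. The mean over 6 oligodendrocyte markers was 9.89 to 10.25 on unimpaired and 10.28 to 10.63 on young arrays. All 6 were lower in unimpaired rats and 2 of them, Cldn11 (-0.64) and Mal (-0.63), fell. Of 8 tested endothelial markers, 6 were lower and 2, Tek (-0.51) and Slco1a4 (-0.40), fell, with a list mean of 5.63 to 5.80 on unimpaired and 5.72 to 5.99 on young arrays. The mean of 12 meningeal markers was 3.35 to 3.47 on unimpaired and 3.42 to 3.78 on young arrays, and without the 4 arrays high in it the Cdh11 difference was -0.26 (limma adjusted p = 0.106). The part of these cells in the Cdh11 value was not tested.

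The other type II cadherins did not pass in any comparison. Cdh10 averaged 8.07 ± 0.21 in impaired and 8.04 ± 0.18 in unimpaired rats, against 8.29 ± 0.15 in young rats, differences of -0.22 and -0.26. Cdh12, also called N-cadherin 2, gave the largest negative difference of the family in impaired rats, -0.42 ± 0.17 (limma adjusted p = 0.3), and -0.31 ± 0.18 in unimpaired rats. Its level ran from 5.25 to 6.60 in impaired rats, from 5.93 to 6.46 in unimpaired rats and from 6.18 to 6.97 in young rats. The lowest values were those of impaired replicates 7 (5.25) and 2 (5.77), both with high meningeal markers. The other arrays with high meningeal markers were not low. Impaired replicate 3 had the highest impaired value (6.60), and young replicate 5 read 6.76, above the young mean of 6.59. Without the 4 such arrays the difference in impaired rats was -0.17. The part of meningeal tissue in the Cdh12 value was not tested. Cdh8 averaged 5.92, 6.02 and 5.94 in impaired, unimpaired and young rats.

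Cdh22, known as PB-cadherin of pituitary and brain, was among the most variable members. Its brighter probe set ran from 11.26 to 11.92 in impaired rats, from 11.27 to 12.14 in unimpaired rats and from 10.72 to 12.16 in young rats. The difference from young rats was 0.03 in impaired rats (95% interval -0.32 to 0.38) and -0.07 in unimpaired rats (-0.44 to 0.29). Its dimmer probe set gave 0.28 and 0.09, neither of which passed.

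Of the 6 measured non-clustered protocadherins, each taken by its brightest probe set, 0 passed in either aged group. All 6 had small negative differences in impaired rats, and all 6 in unimpaired rats as well, though only 3 of 6 there under quantile scaling. Pcdh9 averaged 10.93 ± 0.07 in impaired and 10.76 ± 0.10 in unimpaired rats, against 10.95 ± 0.14 in young rats, a difference of -0.19 ± 0.06 in unimpaired rats (limma adjusted p = 0.118). Pcdh20 gave -0.17 ± 0.06 in unimpaired and -0.09 in impaired rats, and its second probe set -0.19 and -0.08. Pcdh10, a partner of actin regulators at the membrane, had the largest difference of the class in impaired rats, -0.14 ± 0.08 (limma adjusted p = 0.506). Pcdh8, also called arcadlin and known in rat hippocampus as a gene induced by synaptic activity, gave -0.10 in impaired and -0.05 in unimpaired rats. Pcdh19, mutated in a human epilepsy, gave -0.02 in each group. The 3 Pcdh17 probe sets disagreed in sign, at 0.09, -0.05 and -0.05 in impaired rats. Over all 8737 genes, 67.2% had a negative difference in unimpaired rats and 43.8% in impaired rats.

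**Figure D4:**
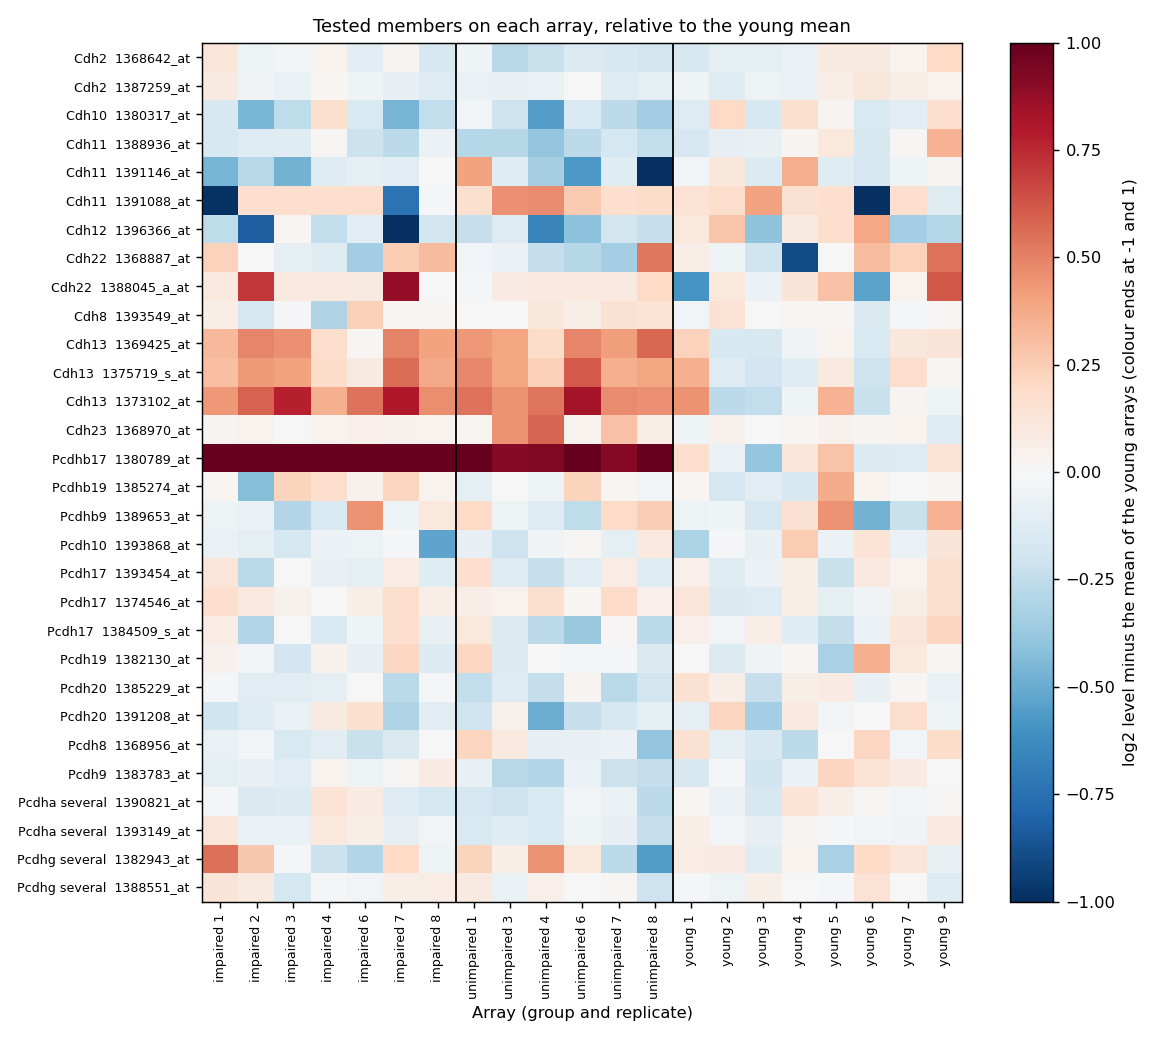
Log2 level of the 30 tested probe sets on each array minus the mean of the 8 young arrays, with aged impaired, aged unimpaired and young arrays in blocks from left to right; the colour scale ends at -1 and 1. Pcdhb17 and the 3 Cdh13 probe sets are red across the aged blocks, and isolated dark cells such as Cdh12 on impaired replicate 7 belong to single rats.

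Across the family, 2 of 26 probe sets rose and 0 fell in impaired rats, namely Pcdhb17 and Cdh13 (1373102_at). Of all 15177 tested probe sets, 0.31% rose and 0.204% fell in that comparison. In unimpaired rats 4 rose, Pcdhb17 and the 3 of Cdh13, and 1 fell, that of Cdh11, against 0.198% and 0.936% of all probe sets. In the mean of the aged groups against young rats, 4 rose and 0 fell, against 0.402% and 0.705%. The 3 Cdh13 probe sets share 1 gene, so the 4 stand for 2 genes. Both comparisons use the same 8 young arrays, so they are not independent of each other.

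Groups did not overlap for 1 family probe set in impaired rats, 3 in unimpaired rats and 1 for all aged rats, which is Pcdhb17. The same held for 0.316%, 0.949% and 0.0857% of all tested probe sets. Single arrays moved the counts. In impaired rats 4 probe sets passed without impaired replicate 6, and also without young replicate 1. In unimpaired rats 3 passed without unimpaired replicate 1, 6 or 8, and also without young replicate 6 or 9. With the 4 arrays high in meningeal markers left out, 1 passed in impaired rats and 2 in all aged rats.

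**Figure D5:**
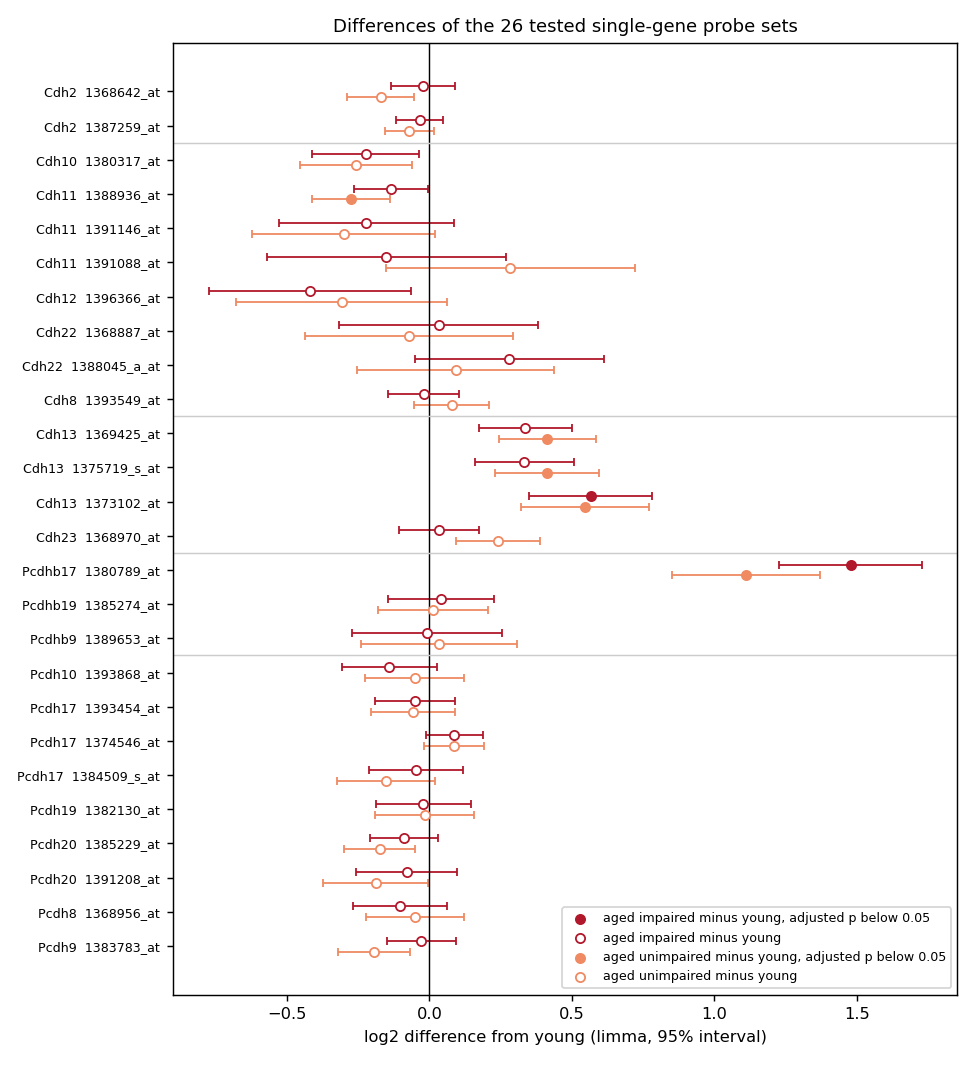
Log2 difference from young rats with its 95% interval for the 26 tested single-gene probe sets, in impaired (upper of each pair, dark) and unimpaired rats (lower, light); filled points passed at an adjusted p below 0.05 and grey lines part the classes. Pcdhb17 at 1.48 and 1.11 stands outside the range of -0.42 to 0.57 in which the other probe sets lie.

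With 1 probe set per gene, the median difference over the 17 family genes was -0.02 in impaired and -0.05 in unimpaired rats, beside 0.01 and -0.04 over all 8737 genes. The family's differences ran from -0.42 (Cdh12) to 1.48 (Pcdhb17) in impaired rats and from -0.31 (Cdh12) to 1.11 (Pcdhb17) in unimpaired rats. Of the 17 genes, 5 were positive in impaired and 6 in unimpaired rats, and with quantile scaling 5 and 9. Within 0.2 of 0 lay 13 of 17 genes (76.5%) in impaired and 11 (64.7%) in unimpaired rats, beside 91.4% and 88.9% of all genes. The spread within groups was also wider, with a median SD of 0.158 over the family and 0.124 over all genes. Neither this spread nor the shares within 0.2 were matched for signal level, so whether they are a trait of the family was not tested. Cdh12 (0.351) and Cdh22 (0.346) varied most and Cdh2 (0.102) least.

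Between the aged groups, limma called 0 of 26 family probe sets and 0 of all 15177 (0%). At an unadjusted p below 0.05 there were 4 family probe sets (15.4%) and 2199 of all (14.5%), so the family stood near the share of all probe sets. These 4 were Cdh23 at -0.21 (95% interval -0.36 to -0.06), Pcdhb17 at 0.37, Pcdh9 at 0.17 (0.04 to 0.30) and Cdh2 at 0.15 (0.03 to 0.27), each as impaired minus unimpaired. The smallest adjusted p was 0.223. The family median was 0.01 and that of all genes 0.05, and with quantile scaling the family median was -0.07 and that of all tested probe sets -0.01. Of the intervals, that of Cdh11 probe set 1391088_at was the widest, from -0.89 to 0.01.

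Genes that act with cadherins were taken from 6 lists written from textbook knowledge. Of the 90 symbols, 75 had a probe set and 56 were tested, and limma called 0 of them in any comparison. At an unadjusted p below 0.05 there were 13 in impaired and 10 in unimpaired rats against young rats, and 6 between the aged groups, which is 23.2%, 17.9% and 10.7% of the 56. Of all tested probe sets 12.4%, 17% and 14.5% had such a p in the same comparisons. Pkp4, a catenin of the p120 family, gave 0.18 ± 0.05 in impaired rats (limma adjusted p = 0.108). Ctnnbip1, which binds beta-catenin, gave -0.21 ± 0.06 in unimpaired rats (limma adjusted p = 0.106). In the wider superfamily, Fat1, a giant cadherin, gave -0.30 in each aged group, and Cdhr2 0.21 in impaired rats (limma adjusted p = 0.118). Of proteases that cut cadherins, Mmp14 gave -0.33 in impaired and -0.30 in unimpaired rats, and Adam17 -0.14 and -0.05.

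Ctcf, the insulator protein at protocadherin promoters, averaged 8.80 ± 0.06 in impaired and 8.74 ± 0.05 in unimpaired rats, against 8.77 ± 0.11 in young rats. Among the other chromatin factors, Wapl, which releases cohesin, was 0.21 higher in impaired than in unimpaired rats (limma adjusted p = 0.197). Smchd1, which helps to silence clustered protocadherins in mouse, gave -0.26 in unimpaired against young rats (limma adjusted p = 0.25). Among kinases and actin regulators, Rhoa was 0.14 higher in impaired than in unimpaired rats (limma adjusted p = 0.2), and the kinase Fyn gave -0.17 in unimpaired against young rats (limma adjusted p = 0.146). The adhesion protein Nectin3 gave -0.23 in impaired and -0.51 in unimpaired rats, and Nectin1 -0.20 and 0.04. None of these passed.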

How the data were processed

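RNA of the dentate gyrus was hybridized to Affymetrix rat genome arrays, 1 rat each. The deposited values are log2 levels per probe set. Per the submitters' processing notes the authors used GCRMA, whose version is not given in the sources used here. Of 24 labelled arrays, 3 (1 per group) were left out by the submitters for quality control, which leaves 21. Groups follow the labels, which give no batch, so none was modelled. A linear model of the 3 groups (limma 3.58.1, run under R 4.3.3, with lmFit and eBayes) left 18 residual degrees of freedom. Benjamini-Hochberg adjustment covered the 15177 probe sets above a log2 level of 4 on at least 6 arrays, with a threshold of 0.05. The probe set with the highest mean stood for a gene. The script was tested on simulated data.

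Named with values were the members that passed, the largest positive and negative difference per class and comparison, the 5 highest means, the members nearest the filter, and the 2 smallest p-values per pathway list. Others named were chosen after their values were seen. Members and lists were chosen with earlier results of these data known. Alternatives were another level filter, 2 scalings, array weights, the spread's prior, fits of only the groups compared, the replicate number as a block, and leaving out arrays. The number of arrays limits the precision of every value.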

Additional observations from a re-analysis of the deposited data

Results flagged for a closer look

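Single arrays stood apart from their group in 9 of the 81 groups examined (27 probe sets in 3 groups each), by the gap to the nearest array as a share of the group's range. Chance alone flags about 1 in 20 groups. The 27 were the tested probe sets with 1 symbol and Pcdhb12 (1385327_at), which lay below the filter. It was added because it had arrays above 4, both of them impaired, so its flag follows from that choice and cannot be set against the chance rate. Pcdhb19 had 1 such array in each group: impaired replicate 2 at 6.56 (the next array at 7.0), unimpaired replicate 6 at 7.21 and young replicate 5 at 7.36. The Cdh13 probe set 1373102_at read 9.96 on unimpaired replicate 6, with the next array at 9.66. Pcdhb12 (1385327_at) read 5.61 on impaired replicate 4, with the next at 4.04. Pcdh10 read 5.30 on impaired replicate 8 and Pcdh20 10.17 on impaired replicate 7, both low. Cdh22 read 12.14 on unimpaired replicate 8, high, and the Cdh11 probe set 1391088_at 3.81 on young replicate 6, low.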

How the results depend on the processing

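Of 1404 recomputed values, 1287 kept their direction and side of the threshold or, for counts, stayed within 1.5 times the main count. For Pcdhb17 against young rats every setting that tested it did so, with differences of 1.46 to 1.55 in impaired and 1.09 to 1.15 in unimpaired rats over the alternatives other than leaving out 1 array. The family count for all aged rats (4) was 2 with 1 probe set per gene and 2 with the 4 arrays high in meningeal markers left out. That for impaired rats (2) was 1 in each of these settings and 1 with only the groups compared in the fit. That for unimpaired rats (5) was 3 with 1 probe set per gene, 3 with no level filter, 2 with only the groups compared and 1 with the replicate number as a block. Leaving out 1 array gave counts of 4 to 5, 2 to 4 and 3 to 5. Without the 4 arrays, Cdh13 in all aged rats was 0.33 (limma adjusted p = 0.0598), and 0.34 at 1375719_s_at (limma adjusted p = 0.0691), neither of which passed. In impaired rats Cdh13 passed under 7 of 31 settings and was lowest, at 0.23, without the 4 arrays (limma adjusted p = 0.424). It passed at 0.34 with array weights, 0.34 with a trended and robust prior, 0.34 with a filter at 6 and 0.41 as the mean of its probe sets. It ran from 0.31 to 0.39 when 1 array was left out. In unimpaired rats the replicate block gave 0.42 (limma adjusted p = 0.102). The block also ended the unimpaired calls of the other Cdh13 probe sets and of Cdh11. The labels tie no shared number to a litter or batch, and for that reason the arrays were taken to share only a number. Deviations of same-numbered arrays correlated at a mean r of 0.0224, with 4 of 17 pairs above 0.1. Pairs of different number had a mean r of -0.00295, with 12 of 129 above 0.1. Of 19 arrays, 7 correlated best with one of their own number. These values were not set against a chance rate, so whether shared numbers pair arrays was not settled.

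Signs turned only for differences that did not pass. Impaired minus unimpaired became 0.11 for Cdh12, -0.099 for Cdh13 (1373102_at) and 0.053 for Pcdhb9 without the 4 arrays, and -0.053 for Cdh13 (1373102_at) with quantile scaling. Impaired minus young became 0.037 for Cdh2 and 0.10 for Pcdhb9 with the replicate block, and for Pcdhb9 0.029 with array weights and 0.15 without the 4 arrays. With 1 array left out, impaired minus unimpaired ran from -0.18 to 0.041 for Cdh12, -0.021 to 0.076 for Cdh13 (1373102_at) and -0.12 to 0.0061 for Pcdhb9, and impaired minus young from -0.048 to 0.0052 for Cdh2, -0.095 to 0.11 for Cdh22 and -0.083 to 0.058 for Pcdhb9. The cause of these changes was not tested. Over all probe sets, calls ran over the alternatives from 76 to 232 for all aged rats (168), 29 to 114 for impaired (78), 9 with the replicate block to 195 for unimpaired (172), and 0 to 1 between aged groups (0). With 1 array left out they ran from 89 to 239, 36 to 161, 59 to 219 and 0 to 4 in the same order. Dim probe sets such as Pcdhb17 in young rats limit the size of a fold.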
